A study of Homo sapiens with 8 samples.

Results

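The 10 genes described here carry out protein lipoylation or encode proteins that depend on it: FDX1, LIAS, LIPT1, LIPT2, PDHA1, PDHB, DLAT, DLST, DLD and GCSH. They were picked by symbol, as known genes of the lipoic acid pathway and of copper-dependent cell death, and make up 10 of the 57169 rows of the deposited gene table. RNA came from HCT116 and SW620, established human colorectal carcinoma lines, SW620 having been derived from a lymph node metastasis. HCT116 treated with AFZC, HCT116 treated with 5-FU, SW620 treated with AFZC and SW620 treated with 5-FU each had 2 libraries. AFZC is the label of a preparation that, by the series title, is an aptamer-modified metal-organic framework nanodrug loaded with 5-fluorouracil. 5-FU is the free drug, a pyrimidine analog that inhibits thymidylate synthase. Exposure was 24 hours in all 4 groups, at the IC50 dose of each agent, so the dose differed by agent and line and is not given in the sources used here. Untreated cells were not analysed here, and every treatment difference is AFZC relative to 5-FU.

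Lipoic acid is a sulfur-containing cofactor that is built on its carrier proteins inside mitochondria and works as a swinging arm in the pyruvate, 2-oxoglutarate and branched-chain ketoacid dehydrogenases and in the glycine cleavage system. LIPT2 places an octanoyl group on the H protein GCSH, LIAS inserts the sulfur atoms in a reaction that draws on the ferredoxin FDX1, and LIPT1 passes the finished group to the E2 subunits. In cuproptosis, a form of cell death first defined with copper ionophores, copper binds lipoylated proteins such as DLAT and makes them aggregate, and loss of FDX1 or of lipoylation genes makes cells resistant.

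Of the 10 genes, DLAT, DLST and GCSH encode proteins with a lysine that receives the lipoyl group, and their attachment sites are shown because copper binds at this modification. Each sequence below gives 30 bases of coding sequence from the GENCODE 29 annotation of GRCh38, with the lysine codon in capitals; codons were counted from the start codon. The lysine is codon 132 and codon 259 of DLAT, which has a pair of lipoyl domains, codon 110 of DLST and codon 107 of GCSH. Both DLAT stretches and that of DLST hold the same gaaactga run before the lysine codon.
DLAT first site: gttgaaactgatAAAgccactgttggattt
DLAT second site: atagaaactgacAAAgccactataggtttt
DLST: attgaaactgacAAGacatctgtgcaggtt
GCSH: ttggaaagtgtgAAAgctgctagtgaactc

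Total counts ran from 31991561 to 40590291 per library, and all 10 genes passed the filter on low counts, among 21378 genes tested. The labels do not state whether replicate libraries were grown as separate cultures, and the p-values therefore reflect only library-to-library variation, some or all of it possibly technical. In RNA from whole cultures, less RNA per cell and fewer cells expressing a gene cannot be told apart. Markers of colorectal epithelium summed to 4887 and 7946 CPM (counts per 1e+06 counts of the library, scaled with TMM factors) in HCT116 under AFZC, against 3501 and 4328 CPM under 5-FU. In SW620 they summed to 5080 and 5502 CPM under AFZC, against 15220 and 16590 CPM under 5-FU. Most of this was KRT8, KRT18 and KRT19, which summed to 3472 and 4037 CPM in SW620 under AFZC, against 13400 and 14480 CPM under 5-FU; the other 5 markers summed to 1466 and 1609 CPM under AFZC, against 1813 and 2112 CPM under 5-FU. CEACAM5, a marker of this epithelium, had 0 counts in 3 of the 4 HCT116 libraries. VIL1, another of these markers, was also low in HCT116, with a mean of 1.37 CPM under AFZC and 0.0576 CPM under 5-FU. In SW620 its means were 257 and 393 CPM. Markers of leukocytes summed to 16 and 41.5 CPM in SW620 under AFZC, against 5.54 and 7.85 CPM under 5-FU. Nearly all of that was LYZ, and PTPRC, which defines leukocytes, had at most 2 counts in any library. The 5 fibroblast markers summed to between 40.2 and 71.6 CPM, mostly COL1A1 in HCT116 and COL1A1 with LUM in SW620, and the 4 endothelial markers to between 4.5 and 18.3 CPM. The part of these differences in the results that follow was not tested.

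The pathway was expressed in a steep order. Levels of different genes are given here as CPM per kilobase of exon, using the exon lengths in the deposited table. In HCT116 under AFZC, DLST, the E2 subunit of the 2-oxoglutarate dehydrogenase, was highest at 23.5 ± 0.0405 CPM per kilobase (SD, n = 2). DLD, the E3 dehydrogenase shared by all of these complexes, was at 17.3 ± 0.673, and DLAT, the E2 subunit of pyruvate dehydrogenase, at 16 ± 3.38. PDHA1, the alpha subunit of pyruvate dehydrogenase E1, followed at 14.6 ± 0.76 and FDX1 at 13.2 ± 2.79. DLD, DLAT, PDHA1 and FDX1 were neighbours whose values lay within the spread of DLAT and FDX1. PDHB, the beta subunit of E1, was lower, at 6.19 ± 0.606 CPM per kilobase. The lipoylation enzymes and their carrier formed the bottom of the order, with GCSH at 2.03 ± 0.122, LIPT1 at 1.28 ± 0.218, LIAS at 1.04 ± 0.0908 and LIPT2 at 0.403 ± 0.191 CPM per kilobase. LIPT1 and LIAS did not differ beyond their spread. The exon length of LIAS in the table, 11735 bases, is the longest of the 10 and lowers its place in this order.

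In the other 3 groups the same genes stood at either end. DLST was highest in each, at 25 ± 0.0085 CPM per kilobase in HCT116 under 5-FU, 34.3 ± 3.2 in SW620 under AFZC and 28.2 ± 1.86 in SW620 under 5-FU. LIPT2 was lowest in each, at 0.373 ± 0.159, 0.555 ± 0.187 and 0.292 ± 0.161 CPM per kilobase in those groups. The middle of the order differed by line. In SW620, PDHA1 and FDX1 came before DLD and DLAT, with 20.8 ± 1.25 and 20.2 ± 0.201 CPM per kilobase for PDHA1 and FDX1 under AFZC and 22.4 ± 0.496 and 19.2 ± 1.02 under 5-FU. DLD and DLAT were there at 15 ± 1.69 and 15.1 ± 1.76 CPM per kilobase under AFZC and 15.1 ± 0.0592 and 14.6 ± 1.27 under 5-FU, and did not differ beyond their spread. In HCT116 under 5-FU, DLAT stood second, at 22.6 ± 0.754 CPM per kilobase.

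**Figure D1:**
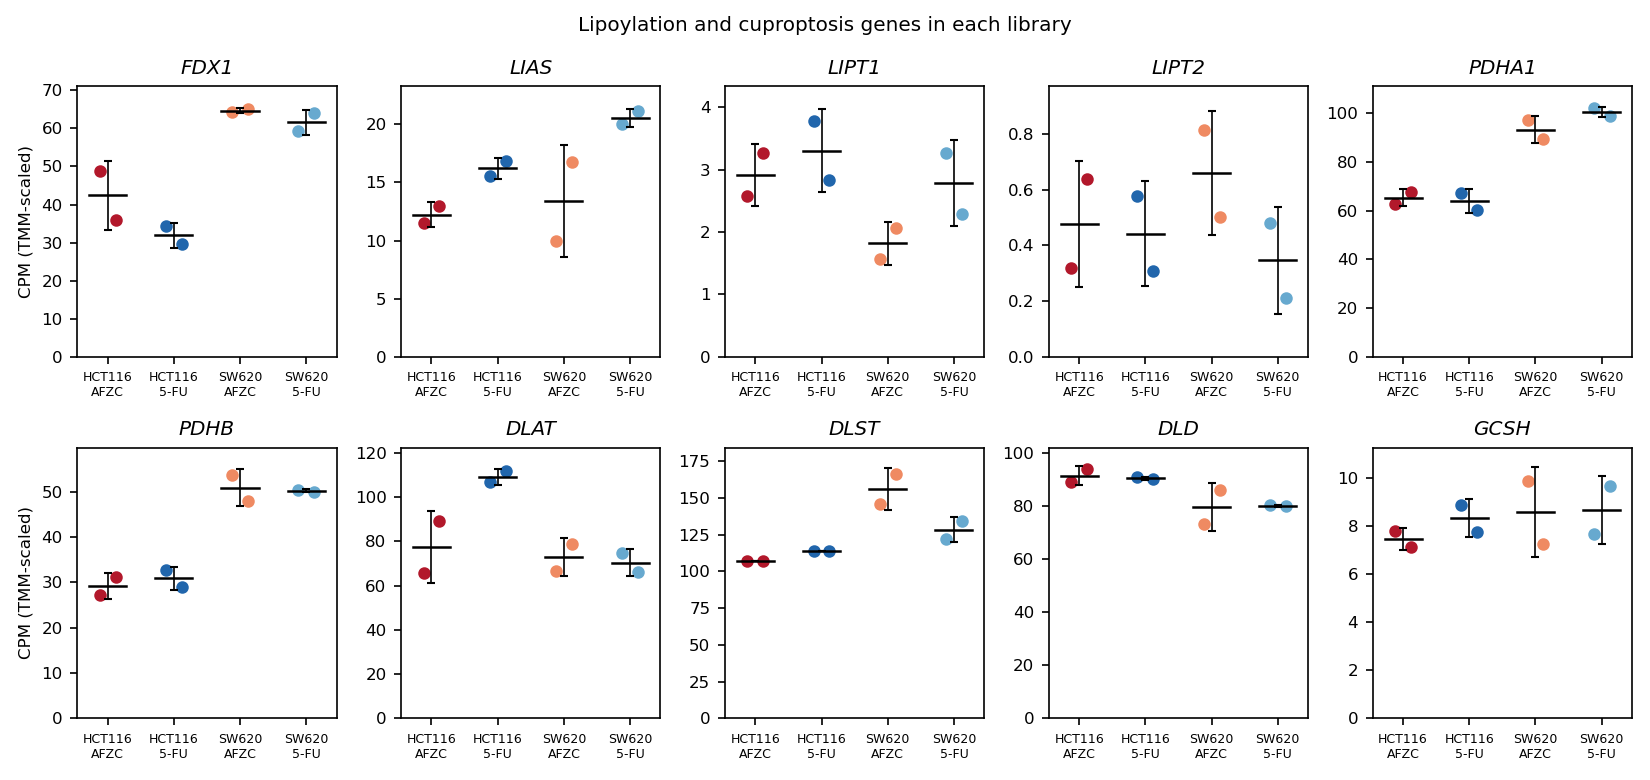
Level of each of the 10 genes in each library, in CPM scaled with TMM factors, by group, with points for libraries, a line for the mean and bars for 1 SD (n = 2); each panel has its own vertical axis, which starts at 0. FDX1, PDHA1, PDHB and DLST stood higher in all 4 SW620 libraries than in any HCT116 library, and DLAT stood highest in the HCT116 5-FU libraries.

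The first comparison asked which of these genes AFZC changed relative to 5-FU in HCT116. None of the 10 passed edgeR's quasi-likelihood test at an adjusted p under 0.05 (Benjamini-Hochberg over all genes tested), in a comparison that called 9.61% of all genes, 5.87% higher and 3.74% lower. DESeq2 also called 0, and 2 of the 10, FDX1 and DLAT, had an unadjusted p under 0.05, as did 24.8% of all genes. The median log2 fold change of the 10 was -0.08, against 0 over all genes tested, and their median absolute log2 fold change was 0.134, against 0.386. The libraries of the 2 groups did not overlap for 4 of the 10 genes, FDX1 being higher and LIAS, DLAT and DLST lower under AFZC, and this held for 55.4% of all genes, 28.1% higher and 27.4% lower.

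FDX1 (chromosome 11, 110429883 to 110464881, GRCh38), the mitochondrial ferredoxin, had 48.7 and 36.1 CPM in HCT116 under AFZC, against 34.3 and 29.6 CPM under 5-FU. Both AFZC libraries were above both 5-FU libraries, the second by a small margin. The log2 fold change was 0.41 ± 0.172 (SE, 95% interval 0.0369 to 0.782, adjusted p = 0.158). It ran from 0.17 without replicate 1 of AFZC (adjusted p = 0.746) to 0.59 without replicate 2 of AFZC (adjusted p = 0.0543). Exons of FDX1 overlap no other gene of the annotation.

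LIAS (chromosome 4, 39458587 to 39485109), the lipoyl synthase, had 11.5 and 13 CPM in HCT116 under AFZC, against 15.5 and 16.9 CPM under 5-FU. The AFZC libraries were the lower ones, without overlap. The log2 fold change was -0.41 ± 0.247 (95% interval -0.94 to 0.127, adjusted p = 0.342). The transferases were scarce and their groups overlapped: LIPT1 averaged 2.92 ± 0.497 CPM under AFZC and 3.31 ± 0.665 CPM under 5-FU, and LIPT2 had 12 and 23 counts under AFZC, against 20 and 11 counts under 5-FU. The 95% interval for LIPT2, from 0.374-fold to 3.12-fold, shows how little these counts could resolve.

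DLAT (chromosome 11, 112024814 to 112064390) had 65.9 and 89 CPM in HCT116 under AFZC, against 107 and 112 CPM under 5-FU. The 2 AFZC libraries differed from each other, and both were below the 5-FU libraries. The log2 fold change was -0.50 ± 0.171 (95% interval -0.866 to -0.127, adjusted p = 0.0877 in edgeR and 0.0678 in DESeq2). The size turned on the AFZC library kept: the log2 fold change was -0.31 with an adjusted p of 0.466 without replicate 1 of AFZC, and -0.75 with an adjusted p of 0.0192 without replicate 2 of AFZC. It was -0.52 with an adjusted p of 0.0343 when low-count genes were kept.

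The partners of DLAT in the same enzyme complex were closer between agents in HCT116. PDHA1 (chromosome X, 19343893 to 19361705) averaged 65.4 ± 3.41 CPM under AFZC and 63.9 ± 4.85 CPM under 5-FU, with a 95% interval of 0.826-fold to 1.27-fold. PDHB (chromosome 3, 58427630 to 58433857) averaged 29.2 ± 2.86 CPM under AFZC and 30.9 ± 2.59 CPM under 5-FU, with an interval of 0.744-fold to 1.2-fold. DLD (chromosome 7, 107890970 to 107931730) averaged 91.5 ± 3.57 CPM under AFZC and 90.5 ± 0.557 CPM under 5-FU, with an interval of 0.816-fold to 1.25-fold. For these 3 genes a change of 2-fold lies outside the interval. DLST (chromosome 14, 74881891 to 74903745) had 107 and 107 CPM under AFZC, against 114 and 114 CPM under 5-FU, and its replicates were so close that the groups separated on a difference of -0.08 ± 0.144 (log2, adjusted p = 0.788). GCSH (chromosome 16, 81081938 to 81096425) averaged 7.47 ± 0.449 CPM under AFZC and 8.34 ± 0.799 CPM under 5-FU (adjusted p = 0.781).

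The same comparison in SW620 also called 0 of the 10 genes, with edgeR and with DESeq2, where edgeR called 18.6% of all genes, 11.6% higher and 6.95% lower. LIAS alone had an unadjusted p under 0.05, as did 32.4% of all genes. The median log2 fold change of the 10 was 0.0049, against 0.03 over all genes, and their median absolute log2 fold change was 0.088, against 0.465. The libraries of the 2 groups did not overlap for 6 genes: FDX1, LIPT2 and DLST were higher and LIAS, LIPT1 and PDHA1 lower under AFZC, although PDHA1 was at 0.27 on the log2 scale with library sizes only. The share over all genes was 59.8%, with 31.5% higher and 28.4% lower.

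LIAS had 9.96 and 16.8 CPM in SW620 under AFZC, against 20 and 21.1 CPM under 5-FU. Replicate 1 of AFZC was far below the others, and both AFZC libraries were below the 5-FU libraries. The log2 fold change was -0.62 ± 0.246 (95% interval -1.15 to -0.0877, adjusted p = 0.0985 in edgeR and 0.0703 in DESeq2), and it was -0.29 with an adjusted p of 0.504 without replicate 1 of AFZC and -1.05 with an adjusted p of 0.0104 without replicate 2 of AFZC. LIAS shares 363 exonic bases with RPL9, a ribosomal protein gene on the other strand, and the libraries did not keep the strand. RPL9 had 247 and 332 CPM in SW620 under AFZC, against 492 and 573 CPM under 5-FU, and fell by 0.88 on the log2 scale (adjusted p = 0.01). In HCT116 it had 345 and 383 CPM under AFZC, against 712 and 523 CPM under 5-FU, and fell by 0.76 on the log2 scale (adjusted p = 0.0322). Those calls of RPL9 were lost without replicate 2 of 5-FU (0.0941) or replicate 1 of AFZC (0.0717) in SW620, with library sizes only in SW620 (0.0667), and without replicate 1 of 5-FU (0.311) or of AFZC (0.151) in HCT116. The part of RPL9 reads in the LIAS counts was not tested.

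Of the transferases in SW620, LIPT1 had 1.58 and 2.07 CPM under AFZC, against 3.27 and 2.3 CPM under 5-FU, a log2 fold change of -0.61 ± 0.376 (adjusted p = 0.289). LIPT2 had 29 and 18 counts under AFZC, against 14 and 7 counts under 5-FU (log2 fold change 0.93, 95% interval -0.622 to 2.49, adjusted p = 0.401). Both genes were apart between groups, in opposite directions, and neither passed the test. LIPT2 shares 31% of its exonic bases with the lncRNA gene AP001372.2 and LIPT1 shares 11.5% with MITD1, so reads of those genes may be counted or lost there.

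DLST had 146 and 166 CPM in SW620 under AFZC, against 122 and 134 CPM under 5-FU. Both AFZC libraries were higher, and the log2 fold change was 0.28 ± 0.144 (95% interval -0.0268 to 0.595, adjusted p = 0.194). The value depended on scaling: with library sizes only, it was 0.66 with an adjusted p of 0.00454, and the median of all genes then moved by 0.375 on the log2 scale. FDX1 had 64.2 and 65.1 CPM under AFZC, against 59.3 and 63.9 CPM under 5-FU (log2 fold change 0.07 ± 0.171, adjusted p = 0.834). DLAT had 66.7 and 78.8 CPM under AFZC, against 74.7 and 66.1 CPM under 5-FU, and these groups overlapped (log2 fold change 0.05 ± 0.171, adjusted p = 0.897).

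For the remaining subunits in SW620, PDHA1 averaged 93.3 ± 5.62 CPM under AFZC and 101 ± 2.23 CPM under 5-FU, an interval of 0.75-fold to 1.15-fold. PDHB averaged 50.9 ± 4.08 CPM under AFZC and 50.3 ± 0.339 CPM under 5-FU, an interval of 0.799-fold to 1.28-fold. DLD averaged 79.6 ± 8.95 CPM under AFZC and 80.1 ± 0.314 CPM under 5-FU, an interval of 0.802-fold to 1.23-fold. A change of 2-fold lies outside these intervals too. GCSH averaged 8.58 ± 1.88 CPM under AFZC and 8.69 ± 1.43 CPM under 5-FU. Its pseudogene GCSHP5 had 114 to 174 counts per library, up to 66.9% of the GCSH count, so the split of reads between them is uncertain. GCSH also shares 12% of its exonic bases with AC092718.3 and 11.7% with AC092718.8, both on its own strand. AC092718.3 had 38 to 118 counts and AC092718.8 had 12 to 47, and reads in the shared bases may be counted or lost there.

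**Figure D2:**
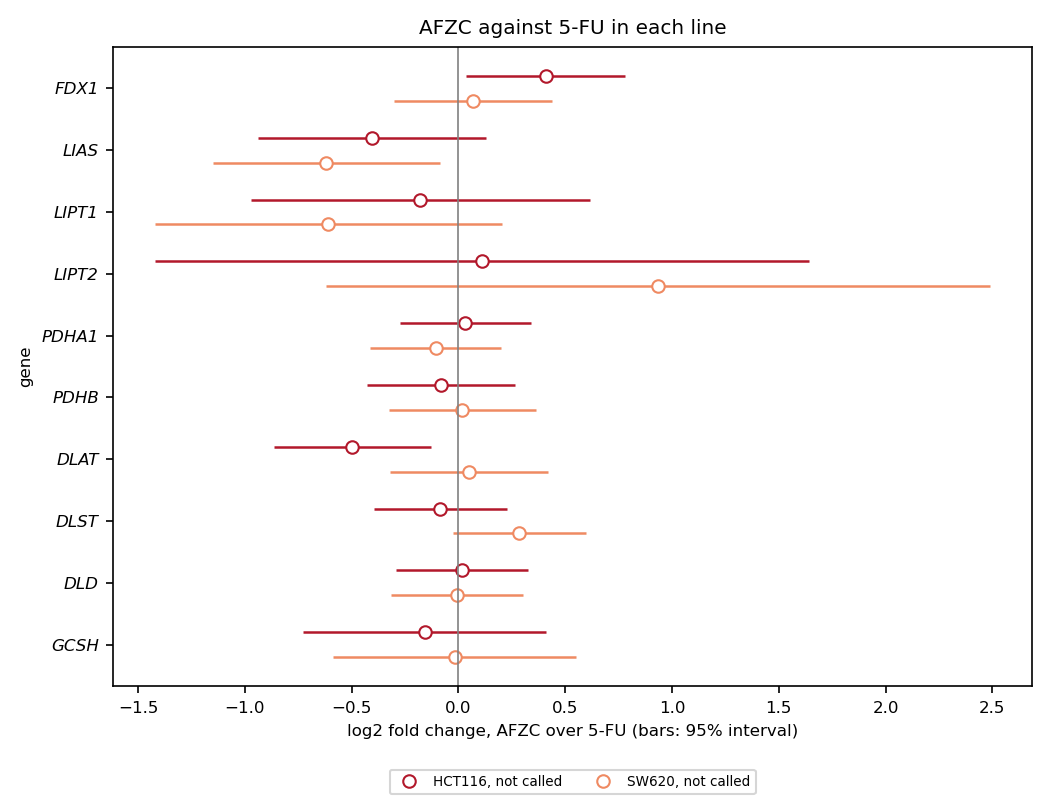
Log2 fold change of AFZC over 5-FU for each gene in HCT116 and SW620, with bars for the 95% interval from edgeR; open circles did not reach an adjusted p under 0.05. All circles are open, and the widest intervals are those of LIPT2, with 7 to 29 counts per library.

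Whether AFZC acted differently in the 2 lines was tested as the difference of its effects, SW620 minus HCT116. Again 0 of the 10 genes were called by edgeR or DESeq2, against 9.78% of all genes in edgeR (5.65% higher and 4.14% lower), and DLAT was the 1 gene with an unadjusted p under 0.05 (24.9% of all genes). The DLAT difference was 0.54 ± 0.242 on the log2 scale (95% interval 0.021 to 1.07, adjusted p = 0.183). Over the left-out libraries it ran from 0.36 (adjusted p = 0.436) without replicate 1 of HCT116 AFZC to 0.80 (adjusted p = 0.0453) without replicate 2 of HCT116 AFZC, with adjusted p up to 0.463. DLST differed by 0.37 ± 0.203 (adjusted p = 0.287), FDX1 by -0.34 ± 0.242 (adjusted p = 0.42; -0.09 without replicate 1 of HCT116 AFZC) and LIAS by -0.21 ± 0.348 (adjusted p = 0.773). With library sizes only, DLAT and DLST were called, at 0.89 (adjusted p = 0.0361) and 0.72 (adjusted p = 0.0296), and the sign of FDX1 and LIAS turned, the median of all genes moving by 0.354 on the log2 scale.

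Ratios of genes within a library do not depend on how libraries are scaled. PDHA1 over DLAT, per kilobase, was 1.03 and 0.819 in HCT116 under AFZC, against 0.679 and 0.582 under 5-FU. It was 1.57 and 1.22 in SW620 under AFZC, against 1.47 and 1.61 under 5-FU. The agents were apart in HCT116 and overlapped in SW620. FDX1 over DLAT was 1.11 and 0.611 in HCT116 under AFZC, against 0.484 and 0.399 under 5-FU, and 1.45 and 1.24 in SW620 under AFZC, against 1.2 and 1.46 under 5-FU. FDX1 over LIAS was 15.5 and 10.2 in HCT116 under AFZC, against 8.07 and 6.41 under 5-FU, and 23.6 and 14.2 in SW620 under AFZC, against 10.8 and 11.1 under 5-FU. That the FDX1 over LIAS ratios do not overlap restates the separation of FDX1 and of LIAS given above. PDHA1 over PDHB, the 2 subunits of 1 enzyme, lay between 1.9 and 2.43 in all 8 libraries. It was 2.43 and 2.28 in HCT116 under AFZC, against 2.16 and 2.19 under 5-FU, and 1.9 and 1.95 in SW620 under AFZC, against 2.12 and 2.08 under 5-FU, apart by agent in both lines and in opposite directions. These ratios are descriptions, since an exact test of 2 libraries against 2 cannot give a two-sided p below 0.333, and a ratio shows unequal change without saying which gene moved.

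**Figure D3:**
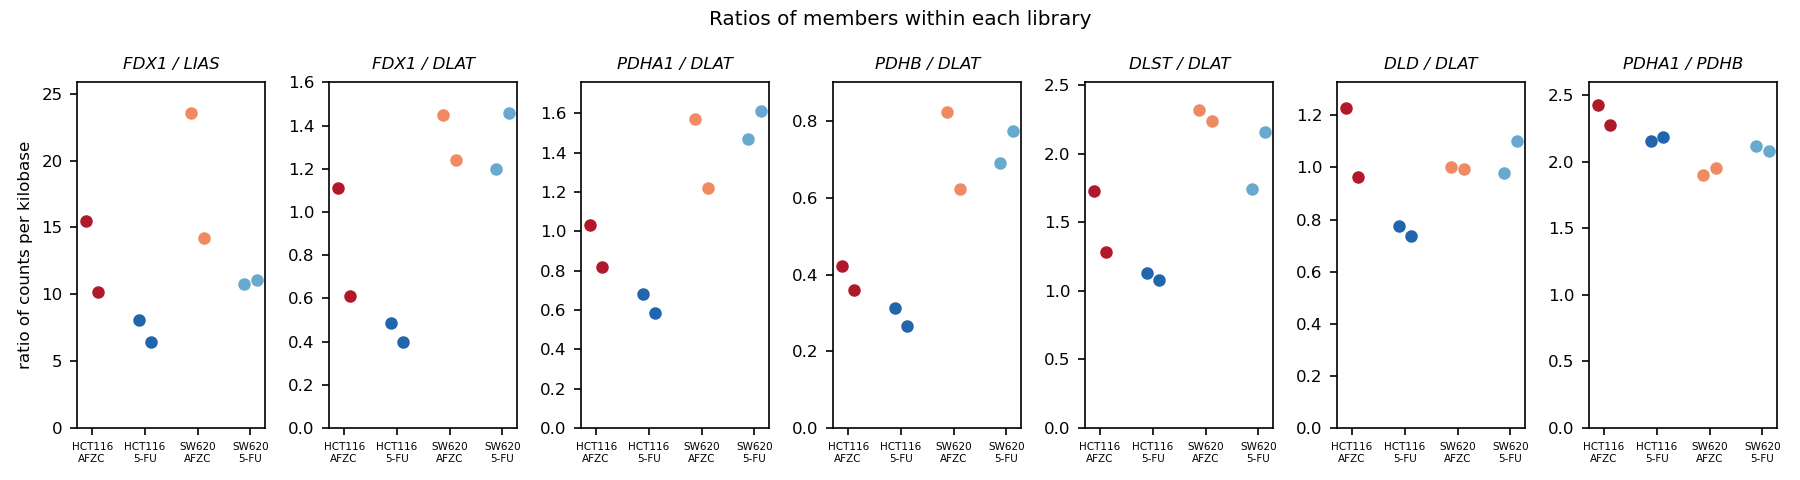
Ratio of CPM per kilobase between pairs of the genes in each library, by group, each panel with its own vertical axis starting at 0. FDX1 over LIAS was higher under AFZC than under 5-FU in both lines, as FDX1 was higher and LIAS lower in those libraries, and PDHA1 over PDHB, between 1.9 and 2.43, was higher under AFZC in HCT116 and lower under AFZC in SW620.

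More of the 10 genes were called between lines than between agents. SW620 and HCT116 were compared under each agent, in comparisons that use the same libraries as those above. Under AFZC, 4 of the 10 genes were higher in SW620 and 0 lower, where 49.3% of all genes were called, 25.1% higher and 24.2% lower. Under 5-FU, 3 were higher and 1 lower, where 54.8% of all genes were called, 26.5% higher and 28.2% lower. The called shares, in either direction, were near those of all genes. DESeq2 also called 4 genes in each. The median log2 fold change of the 10 was 0.33 under AFZC, against -0.00667 over all genes, and 0.12 under 5-FU, against -0.04. Libraries of the lines did not overlap for 6 genes under AFZC, 4 higher and 2 lower in SW620, against 74.4% of all genes (37.2% higher and 37.2% lower). Under 5-FU this held for 7 genes, 5 higher and 2 lower, against 80% of all genes (39% higher and 41% lower).

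PDHB had 53.8 and 48 CPM in SW620 under AFZC, against 27.2 and 31.2 CPM in HCT116 under AFZC. It had 50.5 and 50 CPM in SW620 under 5-FU, against 32.7 and 29.1 CPM in HCT116 under 5-FU. All SW620 libraries were above all HCT116 libraries, and PDHB was higher by 0.80 ± 0.16 under AFZC (adjusted p = 0.0011) and 0.70 ± 0.16 under 5-FU (adjusted p = 0.00236), both on the log2 scale. PDHA1 had 97.3 and 89.4 CPM in SW620 under AFZC, against 63 and 67.8 CPM in HCT116 under AFZC, and 102 and 99 CPM in SW620 under 5-FU, against 67.4 and 60.5 CPM in HCT116 under 5-FU. It was higher in SW620 by 0.51 ± 0.143 under AFZC (adjusted p = 0.00937) and 0.65 ± 0.143 under 5-FU (adjusted p = 0.00182). Both subunits of E1 were thus called under both agents, but with library sizes only both lost the call under 5-FU (adjusted p = 0.0562 for PDHA1 and 0.0533 for PDHB). PDHA1 also lost it under AFZC without replicate 1 of HCT116 AFZC (adjusted p = 0.0561). PDHA1 shares 21.3% of its exonic bases with MAP3K15 on the other strand, which had 96 to 531 counts.

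FDX1 averaged 64.6 ± 0.644 CPM in SW620 under AFZC and 42.4 ± 8.94 CPM in HCT116 under AFZC, and was higher in SW620 by 0.61 ± 0.172 (log2, adjusted p = 0.0102). Under 5-FU it averaged 61.6 ± 3.25 CPM in SW620 and 31.9 ± 3.33 CPM in HCT116, and was higher by 0.95 ± 0.173 (adjusted p = 0.000474). The 4 SW620 libraries were all above the 4 HCT116 libraries. Under AFZC the difference was 0.42 with an adjusted p of 0.094 without replicate 2 of HCT116 AFZC. DLST averaged 156 ± 14.6 CPM in SW620 and 107 ± 0.184 CPM in HCT116 under AFZC, and was higher by 0.54 ± 0.144 (adjusted p = 0.00717). Under 5-FU DLST averaged 128 ± 8.48 CPM in SW620 and 114 ± 0.0387 CPM in HCT116, and did not pass the test (0.17 ± 0.144, adjusted p = 0.323).

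DLAT was the 1 gene of the set called lower in SW620, and under 5-FU alone. It averaged 70.4 ± 6.11 CPM in SW620 under 5-FU and 109 ± 3.64 CPM in HCT116 under 5-FU, a log2 fold change of -0.63 ± 0.171 (adjusted p = 0.00715). The call was lost without replicate 2 of SW620 5-FU (adjusted p = 0.0772). Under AFZC it averaged 72.8 ± 8.52 CPM in SW620 and 77.4 ± 16.3 CPM in HCT116, and the libraries overlapped (-0.09 ± 0.171, adjusted p = 0.695). The test of the difference between these line contrasts is the one given above for the effects of AFZC, which DLAT did not pass. LIAS, LIPT1, LIPT2, DLD and GCSH were not called between lines under either agent, with adjusted p between 0.149 for LIPT1 under AFZC and 0.865 for GCSH under 5-FU.

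**Figure D4:**
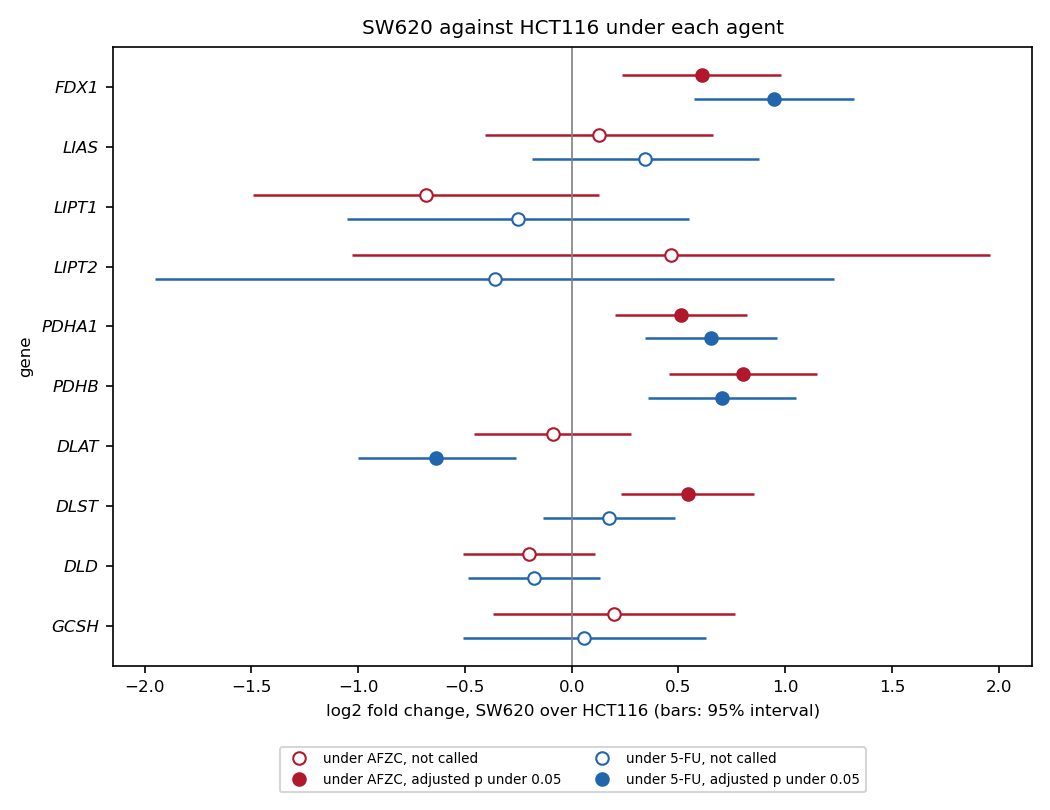
Log2 fold change of SW620 over HCT116 for each gene under AFZC and under 5-FU, with bars for the 95% interval from edgeR; filled circles reached an adjusted p under 0.05. FDX1, PDHA1 and PDHB are filled and positive under both agents, DLST is filled and positive under AFZC, and DLAT is filled and negative under 5-FU.

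Upstream sequences of the 3 genes that differed between lines under both agents are shown because FDX1, PDHA1 and PDHB were called under both. Each is the 250 bases before the RefSeq start on GRCh38.p14, read along the gene, with matches to the motifs searched in capitals. The motifs were an NRF1 core (GCGCATG), the pattern TGCNCNC, an estrogen-related receptor site (AAGGTCA) and a TATA box (TATAAA), each on both strands. TGCNCNC is looser than the core of the metal response element, TGCRCNC, where R is A or G and N is any base. A TGCNCNC match, such as TGCTCAC in PDHB, need not be that core, and matches to TGCRCNC were not counted separately. FDX1 lies at chr11:110429698-110429947 on the plus strand, PDHA1 at chrX:19343677-19343926 on the plus strand and PDHB at chr3:58433833-58434082 on the minus strand.
FDX1: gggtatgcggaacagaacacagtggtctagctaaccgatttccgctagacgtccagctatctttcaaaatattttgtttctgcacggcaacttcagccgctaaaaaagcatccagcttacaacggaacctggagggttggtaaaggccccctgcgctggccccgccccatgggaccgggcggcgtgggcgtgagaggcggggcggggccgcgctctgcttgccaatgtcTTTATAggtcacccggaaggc
PDHA1: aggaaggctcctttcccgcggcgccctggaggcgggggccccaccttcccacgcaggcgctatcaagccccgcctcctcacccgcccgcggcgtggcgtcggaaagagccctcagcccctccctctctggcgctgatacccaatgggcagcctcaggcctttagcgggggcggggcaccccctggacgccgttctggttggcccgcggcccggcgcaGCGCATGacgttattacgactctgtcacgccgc
PDHB: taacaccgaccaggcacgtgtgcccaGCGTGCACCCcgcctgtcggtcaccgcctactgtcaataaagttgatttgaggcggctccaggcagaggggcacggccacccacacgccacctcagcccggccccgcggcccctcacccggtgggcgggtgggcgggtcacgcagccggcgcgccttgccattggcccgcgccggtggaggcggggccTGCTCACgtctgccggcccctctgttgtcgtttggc
FDX1 held a TATA box match on the reverse strand and PDHA1 an NRF1 core. PDHB held 3 matches to TGCNCNC, 2 of them overlapping. The 10 genes had 11 windows, as DLD has 2, which overlap and share a TGCNCNC match. Of the 11 windows, 8 held TGCNCNC, 2 an NRF1 core, 1 an estrogen-related receptor site and 1 a TATA box. Over 35116 windows of the same length, 49.1% held TGCNCNC and 3.77% the NRF1 core. The shares were 3.44% for the estrogen-related receptor site and 10.7% for the TATA box. A match of letters is a description and shows no binding.

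Other genes of the pathway were counted in lists of related genes. Over fits other than the main edgeR fit, DESeq2 among them, 2023 to 3064 of all genes were called in HCT116. In SW620 that range was 3556 to 5586. The share of all genes called by DESeq2 itself is not given, so its counts below have no such share beside them. Of 13 tested genes of ferredoxin partners and iron-sulfur assembly, 2 rose and 0 fell in HCT116 under AFZC, where 5.87% of all genes were called higher and 3.74% lower, with a list median log2 fold change of 0.08. FDXR, the reductase that passes electrons to FDX1, had 285 and 272 CPM in HCT116 under AFZC, against 90.2 and 80.3 CPM under 5-FU, and rose by 1.71 ± 0.179 (log2, adjusted p = 0.000178). The AFZC libraries were well above the 5-FU libraries. ISCU, the scaffold for iron-sulfur clusters, averaged 123 ± 0.0951 CPM under AFZC and 65.1 ± 5.6 CPM under 5-FU and rose by 0.92 ± 0.149 (adjusted p = 0.00284, a call lost at 0.0525 when 5-FU replicate 2 was dropped). In SW620, 0 of the 13 rose and 1 fell, with a list median of 0.03, where 11.6% of all genes were called higher and 6.95% lower. An unadjusted p under 0.05 in edgeR was found for 3 of the 13, and for 32.4% of all genes. DESeq2 called 1 lower. The gene that fell by edgeR was LYRM4, a partner of the cysteine desulfurase, with a log2 fold change of -0.87 ± 0.212 (adjusted p = 0.0137). That call was lost without replicate 1 of 5-FU (0.107) or of AFZC (0.0802). FDXR in SW620 had 31.8 and 22 CPM under AFZC, against 21.2 and 19.5 CPM under 5-FU (0.40 ± 0.179, adjusted p = 0.139).

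Kinases and phosphatases switch the pyruvate and branched-chain dehydrogenases off and on. Of 9 tested, 4 rose, 0 fell and 5 were not called in SW620 under AFZC, with a list median log2 fold change of 0.42, where 11.6% of all genes were called higher and 6.95% lower. In HCT116, where 9.61% of all genes were called, 0 of the 9 were called and the median was -0.01. The effect of AFZC differed between the lines for 2 of the 9, PDP1 and BCKDK, both higher in SW620 minus HCT116, where 5.65% of all genes were called higher. DESeq2 called 4 higher in SW620 and 1 lower in HCT116. An unadjusted p under 0.05 in edgeR was found for 2 of the 9 in HCT116 and 4 in SW620. The shares of all genes were 24.8% and 32.4%. PDK3, a kinase that inactivates pyruvate dehydrogenase, rose 2-fold (95% interval 1.33-fold to 3.01-fold, adjusted p = 0.024), and PDPR, the regulatory subunit of the phosphatase that reactivates it, by 0.74 ± 0.19 (adjusted p = 0.0182). PDP1, the catalytic subunit of that phosphatase, had 41.5 and 36.9 CPM in SW620 under AFZC, against 24.9 and 25.7 CPM under 5-FU, and rose by 0.63 ± 0.184 (adjusted p = 0.0314). The other rise was BCKDK, the kinase of the branched-chain dehydrogenase, named after its value was seen (0.61 ± 0.162, adjusted p = 0.021). The rises thus included 2 kinases and both subunits of the phosphatase that opposes PDK3. Calls were lost without SW620 5-FU replicate 1 for PDK3 (0.131) and PDP1 (0.156), and without replicate 2 for PDK3 (0.0922), PDPR (0.182), PDP1 (0.169) and BCKDK (0.262), all as adjusted p. They were also lost without AFZC replicate 1 for PDK3 (0.149), PDP1 (0.125) and BCKDK (0.0619), and without AFZC replicate 2 for PDPR (0.0575). With library sizes only, PDPR was at 1.11, PDP1 at 1.01 and BCKDK at 0.98 on the log2 scale.

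Of the 9 tested other subunits of lipoylated complexes, 0 rose and 1 fell in HCT116 (median 0.20) and 1 rose and 0 fell in SW620 (median 0.07). The shares of all genes called were 9.61% in HCT116 and 18.6% in SW620, so the share of the 9 called by edgeR was near or below that of all genes. DESeq2 called 2 of these subunits lower in HCT116 and 1 higher in SW620. An unadjusted p under 0.05 in edgeR was found for 2 in HCT116 and 3 in SW620, and for 24.8% and 32.4% of all genes. BCKDHB, the E1 beta subunit of the branched-chain dehydrogenase, had 8.32 and 9.85 CPM in HCT116 under AFZC, against 17.6 and 17.1 CPM under 5-FU, and fell by 0.93 on the log2 scale (SE 0.202, adjusted p = 0.013). Its call was lost without 5-FU replicate 1 (0.12), 5-FU replicate 2 (0.0728) or AFZC replicate 1 (0.093). OGDHL, a paralog of the E1 subunit of 2-oxoglutarate dehydrogenase, had 11.6 and 3.91 CPM in SW620 under AFZC, against 1.41 and 1.6 CPM under 5-FU, and rose by 2.36 ± 0.433 (adjusted p = 0.00463). Its adjusted p was 0.0576 without 5-FU replicate 1 and 0.0606 without 5-FU replicate 2, and its log2 fold change was 1.38 without AFZC replicate 1. PDHX, the E3-binding protein of pyruvate dehydrogenase, did not pass between agents, at 0.20 ± 0.147 in HCT116 (adjusted p = 0.432) and 0.07 ± 0.145 in SW620 (adjusted p = 0.807). It was higher in SW620 than in HCT116 by 1.29 ± 0.148 under AFZC (adjusted p = 1.2e-05) and 1.43 ± 0.148 under 5-FU (adjusted p = 4.11e-06).

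These complexes feed the tricarboxylic acid cycle. Of 16 tested genes of the cycle and of pyruvate entry, 0 rose and 3 fell in SW620 under AFZC, with a list median of -0.22. The share called in either direction was near the 18.6% of all genes called there. All 3 calls were lower, where 11.6% of all genes were called higher and 6.95% lower. DESeq2 called 0 higher and 4 lower. Of the 16, 3 had a positive and 13 a negative log2 fold change. Libraries of the agents were apart for 3 genes higher and 11 lower, against 31.5% and 28.4% of all genes. SUCLG2 and SUCLG1, subunits of succinyl-CoA ligase, fell by 0.91 (SE 0.159, adjusted p = 0.00191) and 0.53 (SE 0.163, adjusted p = 0.0396) on the log2 scale, and IDH3B, a subunit of isocitrate dehydrogenase, fell by 0.49 (SE 0.159, adjusted p = 0.0476). The calls of SUCLG1 and IDH3B were lost without any 1 of the 4 SW620 libraries, with adjusted p up to 0.236 and 0.186, and with library sizes only they were at -0.15 and -0.12 and SUCLG2 at -0.54. In HCT116, where 9.61% of all genes were called, 1 of the 16 rose and 1 fell, with a median of 0.12. IDH3A, the catalytic partner of IDH3B, rose by 0.91 ± 0.162 (adjusted p = 0.00456) and SUCLG2 fell by 0.63 (SE 0.158, adjusted p = 0.0257). IDH3A lost its call without 5-FU replicate 1 (adjusted p = 0.089), and SUCLG2 without any 1 of the 4 HCT116 libraries (up to 0.214). Of 7 genes of mitochondrial fatty acid synthesis, which supplies the octanoyl group, edgeR called 0 in either line, with medians of -0.14 in HCT116 and -0.12 in SW620. An unadjusted p under 0.05 in edgeR was found for 3 of the 7 in HCT116 and 1 in SW620, and for 24.8% and 32.4% of all genes. DESeq2 called 1 lower in each line.

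The last list held 5 other genes known from cuproptosis screens, of which edgeR called 0 higher and 1 lower in HCT116 and 0 in SW620, against 9.61% and 18.6% of all genes. DESeq2 called 1 lower in HCT116 and 0 in SW620. In SW620, 0 of the 5 had an unadjusted p under 0.05 in edgeR, against 32.4% of all genes. CDKN2A, a cell cycle inhibitor gene, had 25.1 and 34.1 CPM in HCT116 under AFZC, against 57.6 and 44.6 CPM under 5-FU, and fell by 0.79 on the log2 scale (SE 0.207, adjusted p = 0.0311). Its call was lost without 5-FU replicate 1 (0.292), 5-FU replicate 2 (0.0617) or AFZC replicate 1 (0.2). In SW620 it was at -0.19 ± 0.203 (adjusted p = 0.554). The copper transporters did not pass in either line. SLC31A1, which imports copper, was at 0.15 ± 0.183 in HCT116 and 0.17 ± 0.184 in SW620. The exporter ATP7A was at 0.14 ± 0.203 in HCT116 and 0.05 ± 0.2 in SW620, and the exporter ATP7B at -0.29 ± 0.193 in HCT116 and -0.03 ± 0.192 in SW620. MTF1, the metal-responsive transcription factor, was at 0.38 ± 0.181 in HCT116 (adjusted p = 0.221) and -0.16 ± 0.184 in SW620 (adjusted p = 0.602).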

How the data were processed

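RNA-seq of 8 libraries was analysed (polyadenylated RNA, not strand-specific, per the labels' protocols). The deposited table holds raw counts per gene symbol, with exon positions and lengths, per the file headers. The submitters' processing notes name featureCounts, HISAT2, STAR and the build GRCh38; they do not say which aligner made the counts or how mates were counted. The number of genes at 2 counts exceeded the number at 1 count by a factor of 1.68 to 1.84 in each library, so counts may not be independent fragments.

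Counts were analysed with edgeR 4.0.16 in R 4.3.3 (filterByExpr with a minimum count of 10, TMM factors, a quasi-likelihood fit of 4 group means with robust dispersion and 4 residual degrees of freedom). P-values were two-sided and adjusted by Benjamini-Hochberg over all 21378 genes tested, with a threshold of 0.05. The standard error is the log2 fold change over the square root of F. DESeq2 1.42.0 was an alternative, and input and plots used the packages data.table (version 1.17.8) and matplotlib (version 3.10.9). Chi-square over its degrees of freedom was 23.4 to 59.3 between replicate libraries, more than sampling alone gives. The steps were tested on simulated data for AFZC against 5-FU in HCT116. In it, 200 genes were changed, drawn only from genes that were not low in counts, with 20694 genes tested. Of simulated 2-fold changes 54% were called, and of simulated 4-fold changes 96%. These rates do not cover genes with few counts, such as LIPT2, or comparisons in which many more genes differ. Of the calls, 6.83% were false, against a threshold of 0.05.

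The genes and lists were chosen with earlier results of these data known. Named related genes were, per list and agent comparison, up to 3 called genes with the largest change, plus PDHX and the cuproptosis screen genes whatever their result; 1 gene of these lists is not reported here. RPL9 and other genes sharing exons, LYZ, COL1A1, LUM, CEACAM5, VIL1, PTPRC and GCSHP5 were named after their values were seen. BCKDHA and FDX2 did not pass the filter. Other scalings, filters, fits and left-out libraries are given in the closing section.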

Additional observations from a re-analysis of the deposited data

Results flagged for a closer look

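Of the 13 related genes named for a call in a comparison of agents, 4 had an effect of AFZC that differed between the lines, by edgeR's test of the difference itself (SW620 minus HCT116, log2 scale, adjusted over all genes, 9.78% of which were called). The 13 were picked for a call in 1 line or, for SUCLG2, in both lines. Those comparisons use the same libraries, so their share called is not set against that of all genes. OGDHL differed by 3.48 (adjusted p = 0.00491), with 11.6 and 3.91 CPM under AFZC against 1.41 and 1.6 CPM under 5-FU in SW620, and 25.1 and 23.6 CPM under AFZC against 57.3 and 49 CPM under 5-FU in HCT116. Over the left-out libraries its value ran from 2.52 to 4.08 and it was called in all 8. PDP1 differed by 1.13 (adjusted p = 0.0167), with 836 and 1121 CPM under AFZC against 1360 and 1398 CPM under 5-FU in HCT116, where its level was far above that in SW620. It was called without 4 of the 8 libraries in turn and not without any of the other 4, all of which were 5-FU libraries (adjusted p up to 0.0712). FDXR differed by -1.31 (adjusted p = 0.00669) and was called without each of the 8 libraries in turn. ISCU differed by -0.985 (adjusted p = 0.0115), with 59.2 and 70.7 CPM under AFZC against 68.4 and 67.7 CPM under 5-FU in SW620, and lost its call without replicate 2 of HCT116 5-FU (adjusted p = 0.0732) and with library sizes only (-0.633, adjusted p = 0.0606). BCKDK, which is not among the 13, differed by 0.88 (adjusted p = 0.0292) and was not called without 4 of the 8 libraries in turn: replicate 1 (0.12) or 2 (0.0782) of HCT116 5-FU, replicate 1 of HCT116 AFZC (0.0579) or replicate 2 of SW620 5-FU (0.167), all as adjusted p.

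For 2 ratios per kilobase the libraries of the agents were apart in opposite directions in the lines, and the difference was not tested. These 2 were picked for that pattern from a larger set of ratios. Separation is common with 2 libraries per group: 55.4% of all genes were apart between agents in HCT116 and 59.8% in SW620. PDHA1 over PDHB, with the values given above, differed by -0.24 on the log2 scale (effect of AFZC in SW620 minus that in HCT116). OGDH, the E1 subunit of 2-oxoglutarate dehydrogenase, over DLST was 1.58 and 1.49 in SW620 under AFZC, against 1.79 and 1.63 under 5-FU, and 1.42 and 0.945 in HCT116 under AFZC, against 0.808 and 0.914 under 5-FU, a difference of -0.586.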

How the results depend on the processing

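Each value of the 10 genes was taken again from fits under other settings and without each library of the groups compared. Of the 510 values this gave, 456 kept both direction and side of the threshold. Where 1 library of a group was left out, the lone library was assumed to vary like the other groups. Library sizes only, in place of TMM factors, moved the median of all genes by 0.375 (SW620), 0.354 (difference of effects) and -0.299 (lines under 5-FU) on the log2 scale. With that setting the genes called higher were 1 in SW620 (DLST), 2 for the difference of effects and 1 for the lines under 5-FU (lower 2), and the medians of the 10 were 0.381, 0.391 and -0.186. In SW620 it reversed DLD (0.366), PDHA1 (0.27), GCSH (0.366), MTF1 (0.222), CDKN2A (0.186) and ATP7B (0.346), called PDHX (0.442, adjusted p = 0.0473) and SLC31A1 (0.548, adjusted p = 0.0375), and ended the call of LYRM4 (-0.495, adjusted p = 0.111) beside those given above for SUCLG1, IDH3B and RPL9. It reversed FDX1 (0.0179), LIAS (0.135), DLD (0.328) and PDHA1 (0.214) in the difference of effects, and DLST (-0.127) and GCSH (-0.244) between lines under 5-FU, where DLD was called lower (-0.476, adjusted p = 0.013). Without the low-count filter, 1 gene was called lower in HCT116, DLAT, and DLD was at -0.00731. Fitting only the groups compared turned DLD (0.012) and GCSH (0.00375) in SW620. The cause was not tested.

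Libraries with the same replicate number shared little deviation from their group means (correlation 0.05 in HCT116 and -0.03 in SW620). That cannot show whether libraries were paired in culture or preparation, which the labels do not state. With the replicate block the genes called among the 10 were again 0, 0, 0, 4 and 4 over the 5 comparisons, and IDH3B lost its call in SW620 (-0.495, adjusted p = 0.0652). All-gene calls with the block were 2023 in HCT116 and 3840 in SW620, against 2054 and 3968 without it.

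Over the left-out libraries, genes called lower among the 10 ran from 0 to 1 in HCT116 and from 0 to 1 in SW620, genes called higher from 0 to 1 for the difference of effects and from 3 to 4 between lines under AFZC, and genes called lower from 0 to 1 between lines under 5-FU. Medians of the 10 ran from -0.229 to 0.013 in HCT116, -0.00377 to 0.0138 in SW620, -0.0176 to 0.105 for the difference, 0.148 to 0.43 between lines under AFZC and 0.0495 to 0.227 under 5-FU. All genes called ran from 305 to 2723 in HCT116, 1583 to 4437 in SW620, 757 to 2460 for the difference, 8833 to 10443 between lines under AFZC and 9051 to 12098 under 5-FU. Some log2 fold changes, none of them called with all libraries, changed sign when a library was left out, and their ranges follow. In HCT116 these were LIPT1 (-0.389 to 0.0416), LIPT2 (-0.495 to 0.621), DLD (-0.0478 to 0.0463), PDHA1 (-0.0629 to 0.11), PDHB (-0.209 to 0.00565) and SLC31A1 (-0.0795 to 0.314). In SW620 these were DLD (-0.128 to 0.109), DLAT (-0.0773 to 0.169), PDHB (-0.0587 to 0.098), GCSH (-0.253 to 0.189), CDKN2A (-0.473 to 0.0451), SLC31A1 (-0.0296 to 0.357), ATP7A (-0.242 to 0.302) and ATP7B (-0.075 to 0.00959). For the difference of effects these were LIAS (-0.621 to 0.138), DLD (-0.126 to 0.111) and GCSH (-0.0769 to 0.366). Between lines under AFZC these were LIAS (-0.291 to 0.468), DLAT (-0.295 to 0.153) and GCSH (-0.0327 to 0.411). Between lines under 5-FU these were LIPT2 (-1.05 to 0.154) and GCSH (-0.117 to 0.215). Depth limits LIPT2 most, with 7 to 29 counts per library.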
